A study of Mus musculus with 2 samples.

Results

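The TIE receptors and angiopoietins comprise 4 genes, Tek, Tie1, Angpt1 and Angpt2, which are 4 of the 29875 gene names on the arrays. They were chosen as the probes whose gene name in the scanner files is one of these symbols, and each gene has 1 probe. The RNA came from ureters of wildtype NMRI mouse embryos, sex not determined, dissected at E12.5 and cultured as explants for 18 h in serum-free medium. The BIO group received 10 µM BIO (6-bromoindirubin-3-oxime), an inhibitor of the kinase GSK3 that activates canonical WNT signaling, and the control group received the solvent DMSO at 2 parts in 1000. Each of the 2 arrays compared RNA of 1 pool of BIO-treated ureters with RNA of 1 pool of control ureters. BIO RNA was read in red in replicate 1 and in green in replicate 2. An explant is a whole organ rudiment, so that its RNA comes from all of its cell types.

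TEK (also called TIE2) and TIE1 are receptor tyrosine kinases of endothelial cells. ANGPT1, secreted mainly by mesenchymal and perivascular cells around the vessel, activates TEK and stabilizes the vessel wall. ANGPT2, released mainly by endothelial cells during vessel remodeling, acts on TEK in a context-dependent manner and often opposes ANGPT1. TIE1 binds no angiopoietin with high affinity and modulates TEK within a shared receptor complex.

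The probes of Tek and Tie1 are shown because the receptors are related in sequence. The Tek probe (NM_013690, plus strand) lies on chromosome 4 at 94540624 to 94540683 of build mm9, and the Tie1 probe (NM_011587, minus strand) on chromosome 4 at 118144132 to 118144191. Capitals mark bases that are identical when both probes, printed 5′ to 3′, are aligned without gaps. In this alignment the Tie1 probe starts 3 bases before the Tek probe.
Tek: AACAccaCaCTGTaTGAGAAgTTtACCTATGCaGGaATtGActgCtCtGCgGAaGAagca
Tie1: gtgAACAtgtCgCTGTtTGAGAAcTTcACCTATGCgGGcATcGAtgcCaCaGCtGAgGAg
The probes share 39 of the 57 aligned bases, or 68.4%, and the longest identical run is 8 bases. Whether either probe also binds the other transcript was not tested. The Angpt1 probe (NM_009640, minus strand) lies on chromosome 15 at 42256335 to 42256394, and the Angpt2 probe (NM_007426, minus strand) on chromosome 8 at 18691458 to 18691517. No further probe cites a transcript of the 4 genes.

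Each array carried 174979 spots, and every probe of the 4 genes was spotted 4 times per array. On both arrays and in both channels, all 4 spots of each of these probes were well above background, 0 were marked as outliers and 0 were saturated. Over all biological spots, the share well above background lay between 70.1% and 80.9% in the 4 channels. Below, signals are the processed intensities of the scanner software, averaged over the 4 spots with the SD between spots, which is technical. Log2 ratios are BIO over control after the dye swap was turned, and the error of their mean is the standard error of limma's fit across 28824 tested probes, with n = 2 arrays.

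The first question was whether BIO changed the RNA of the receptors and ligands. The signals of all 4 genes were lower with BIO on both arrays. Angpt1 showed the largest mean fall of the 4 and Angpt2 the next, followed by both receptors at similar values. All 4 probes were called lower in the limma test at an adjusted p below 0.05, where 14.3% of all tested probes were called lower and 8.95% higher, 23.2% in either direction. In this bulk RNA, fewer cells of a type and less RNA per cell cannot be told apart.

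The receptor gene Tek had a signal of 273 ± 8.78 (SD of 4 spots) in control and 96.9 ± 6.82 with BIO in replicate 1. In replicate 2 the signal was 325 ± 11.3 in control and 137 ± 4.30 with BIO. The highest BIO spot, at 142, lay below the lowest control spot, at 263, so that the groups did not overlap. Over both arrays, all BIO spots lay below all control spots for each of the 4 genes and for 17.8% of all tested probes, and the spots of a channel share 1 RNA pool. Replicate 1 gave a log2 ratio of -1.44 and replicate 2 one of -1.09. Their mean, -1.27 ± 0.12 (SE, n = 2), corresponds to 2.41-fold lower RNA with BIO (limma adjusted p = 0.000323). At such low signals the offset of 50 in the background correction pulls ratios toward 0, and with an offset of 16 the mean was -1.34.

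Tie1, encoding the companion receptor, had a signal of 1444 ± 19.7 in control and 626 ± 11.8 with BIO in replicate 1. In replicate 2 it reached 1751 ± 43.0 in control and 776 ± 18.5 with BIO. All BIO spots were at or below 796 and all control spots at or above 1425. Log2 ratios of -1.27 and -1.16 on replicates 1 and 2 averaged to -1.22 ± 0.11 (SE, n = 2), or 2.33-fold lower (limma adjusted p = 0.000227). Of the 4 genes, Tie1 had the smallest difference between the arrays.

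Angpt1, the gene of the activating ligand, had a signal of 1673 ± 79.9 in control and 360 ± 18.1 with BIO in replicate 1. Replicate 2 gave 2253 ± 66.1 in control and 659 ± 21.3 with BIO. All BIO spots were at or below 688, and the control spots began at 1596. Log2 ratios of -2.14 and -1.83 on replicates 1 and 2 averaged to -1.98 ± 0.12 (SE, n = 2). The BIO value was thus 25.3% of control, a 3.96-fold fall (limma adjusted p = 5.05e-05). Among the tested probes 98 had a lower mean ratio, which is 0.340% of them.

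Angpt2, the gene of the ligand that endothelial cells release, had a signal of 1678 ± 165 in control and 471 ± 29.7 with BIO in replicate 1. On the second array it was 1892 ± 116 in control and 772 ± 50.3 with BIO. Here too the groups did not overlap, with BIO spots at or below 833 and control spots at or above 1499. Log2 ratios of -1.85 and -1.27 on replicates 1 and 2 averaged to -1.56 ± 0.15 (SE, n = 2), or 2.95-fold lower (limma adjusted p = 0.000286). Of the 4 genes, Angpt2 had the largest difference between the arrays, 0.58.

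**Figure D1:**
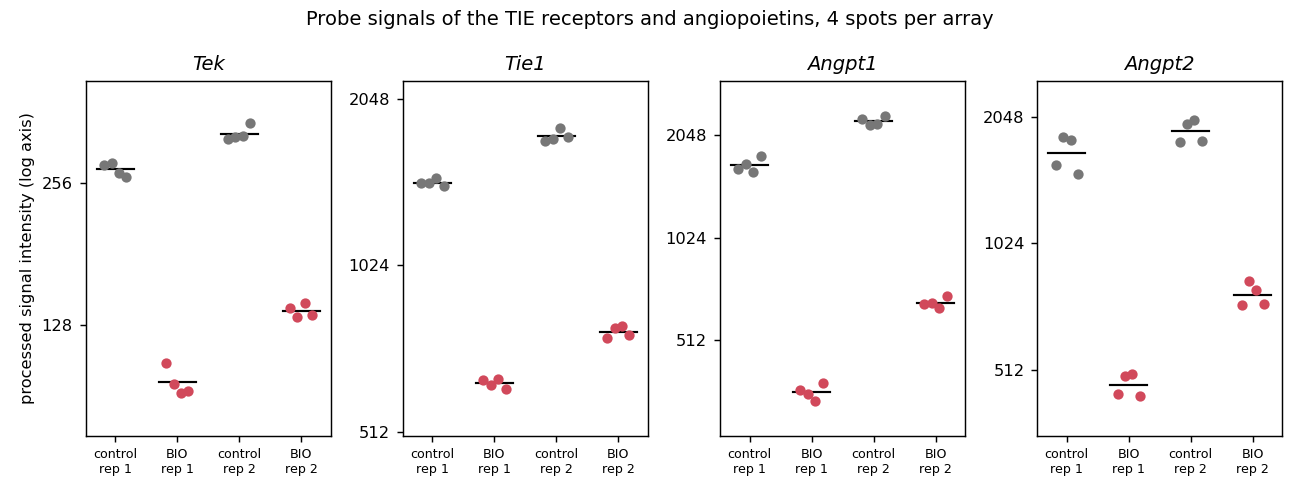
Processed signal intensity (log axis, a separate range for each gene) of the 4 spots of each probe, in control (grey) and BIO (red) RNA of replicates 1 and 2; the line is the mean of the spots. In every panel all BIO spots lie below all control spots, and the step from control to BIO is largest for Angpt1, from 1673 to 360 in replicate 1.

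The arrays differed in the size of the falls. In all 4 genes the log2 ratio was lower in replicate 1 than in replicate 2, by 0.35 for Tek, 0.11 for Tie1, 0.30 for Angpt1 and 0.58 for Angpt2. The median absolute difference between the arrays over all tested probes was 0.162. Among probes called lower, 69.3% had the lower ratio in replicate 1. BIO RNA was red in replicate 1 and green in replicate 2, so pool and dye cannot be told apart in this difference. The ratios of the single spots of Tek, Angpt1 and Angpt2 did not overlap between the arrays. Those of Angpt2 lay between -1.97 and -1.69 in replicate 1 and between -1.33 and -1.17 in replicate 2, and those of Angpt1 between -2.25 and -2.04 and between -1.89 and -1.75. The spot ratios of Tek lay between -1.48 and -1.38 and between -1.20 and -1.03. For Tie1 they overlapped, at -1.31 to -1.23 and -1.28 to -1.06. The spots of an array share their RNA pools, and the share of all tested probes without such overlap was not computed. The direction was the same in both dye orientations for all 4 genes.

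**Figure D2:**
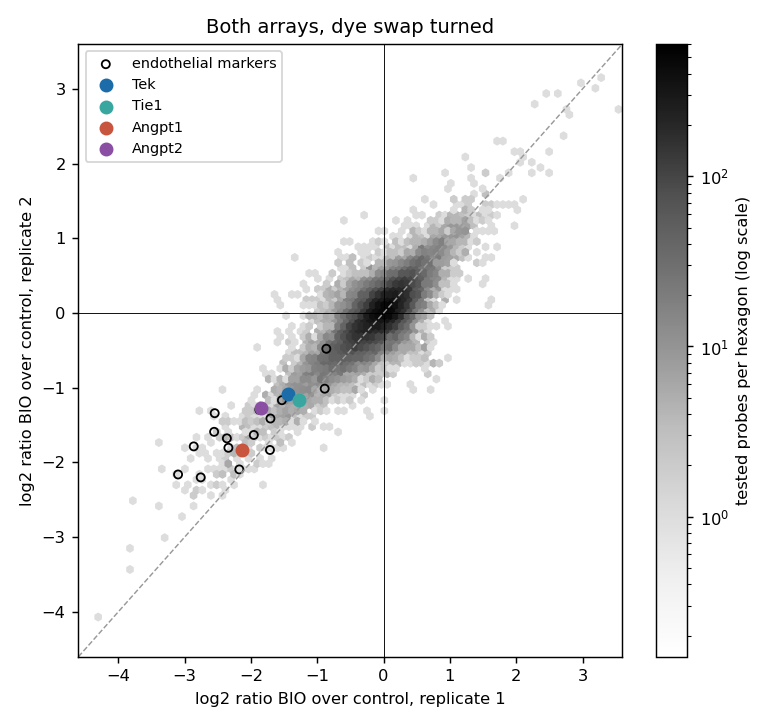
Log2 ratio of BIO over control in replicate 1 (horizontal axis) and replicate 2 (vertical axis) for all tested probes (grey hexagons, darker where there are more), the 4 genes (filled circles) and 15 endothelial markers (open circles); the dashed line marks equal ratios. All 4 genes lie below 0 on both axes, with Angpt1 farthest down at -2.14 and -1.83, and all 4 lie above the dashed line.

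The order by mean ratio was Angpt1, Angpt2, Tek and Tie1. With the main processing Tek and Tie1 changed their order between the arrays, with a difference of -0.17 in replicate 1 and 0.07 in replicate 2. With the processed signals Tek was lower than Tie1 on both arrays, at -1.49 and -1.24 against -1.20 and -1.17. Angpt1 was lower than Angpt2 by a log2 difference of -0.29 in replicate 1 and -0.56 in replicate 2, lower than Tek by 0.69 and 0.74, and lower than Tie1 by 0.86 and 0.67. Angpt2 was lower than Tek by 0.40 and 0.18. With 2 arrays an exact sign-flip test of such a difference cannot give a p below 0.5, so these differences are values without a test. The study states an intensity and fold criterion for its other arrays. It was applied here as a brighter channel of at least 100 and a change of at least 2-fold on both arrays, where taking the brighter channel is a choice made here. All 4 genes met it as lower, which held for 2.52% of the probes that bright, and 1.27% met it as higher. At a minimum of 3-fold, Angpt1 was the only one of the 4 that met it, and the share of all probes at that fold was not computed. The criterion has no test.

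The next comparison set the 4 genes beside markers of the endothelium, which expresses both receptors. All 15 endothelial markers were called lower, against 14.8% of 21574 tested genes called lower and 9.13% called higher, with each gene represented by its brightest probe. The median of their mean log2 ratios was -1.94, and the medians of the single arrays were -2.17 and -1.63. Over all tested genes the median was -0.01. The summed signal of the markers with BIO was 19.8% of control in replicate 1 and 30.0% in replicate 2. Kdr, the main VEGF receptor gene, had a mean log2 ratio of -2.63, Sox17 one of -2.48 and the cadherin gene Cdh5 one of -2.32. None of the 15 was at 0 in control, although Erg was dim there at signals of 23.5 and 23.6.

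Both receptor genes fell less than most endothelial markers. Tek lay above the endothelial median by a log2 difference of 0.73 in replicate 1 and 0.54 in replicate 2, and Tie1 by 0.90 and 0.47. On each array 13 of the 15 markers had a lower ratio than Tek, and likewise 13 of 15 had a lower ratio than Tie1. In the means the exceptions were Eng at -0.95 and Erg at -0.67. The Erg signal went from 23.5 in control to 3.40 with BIO in replicate 1, and from 23.6 to 9.63 in replicate 2. With BIO, Erg was well above background in replicate 2 only. The offset in the background correction pulls ratios toward 0 at such low signals. Whether Erg fell less than the receptors therefore cannot be told, and the counts of 13 of 15 take its ratio as it stands. Angpt2 lay above the median by 0.33 and 0.36, with 11 of 15 markers at a lower mean. Angpt1 lay near the median, at 0.04 in replicate 1 and -0.20 in replicate 2, with 7 markers below it and 8 above. These differences are again values without a test, and the smallest exact p would be 0.5. The part of a loss of endothelial cells in the falls of the 4 genes was not tested.

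Lymphatic endothelial cells also carry TIE receptors. Of 4 lymphatic markers, Pdpn and Flt4 were called lower at -0.73 and -0.62, and Prox1 and Lyve1 were not called at 0.11 and -0.43. Over all tested genes 14.8% were called lower and 9.13% higher. Their median was -0.52, and Flt4 was dim with signals of 32.1 and 44.0 in control. The summed signal with BIO was 61.3% and 66.8% of control in replicates 1 and 2.

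Mural cells and mesenchyme are the usual sources of ANGPT1. Of 8 mural cell markers 5 were called lower and 0 higher, against 14.8% and 9.13% of all tested genes, with a median of -0.92. The receptor gene Pdgfrb had -2.17, Rgs5 -1.84 and the channel subunit gene Abcc9 -1.20, whereas Cspg4 and Mcam were not called at -0.23 and -0.30. Notch3 was not called at 0.34 (limma adjusted p = 0.0525). The summed mural signal with BIO was 71.2% and 61.0% of control on the arrays, but Mcam, which was not called, made up much of it, with signals of 15073 in control and 15091 with BIO in replicate 1. Pdgfrb went from 8670 to 1669 there. Of 6 markers of the ureteric mesenchyme, Pdgfra and Col1a1 were called lower at -0.79 and -0.44, Tshz3 was called higher at 0.55, and Tbx18, a defining gene of this tissue, was not called at -0.22. Foxf1 and Sox9 changed sign between the arrays and were not called, with -0.80 and 0.48 for Foxf1 and -0.80 and 0.34 for Sox9. With the processed signals 1 gene of this list was called lower and 0 higher, and no gene was called higher without the filter on dim probes or with the score table. The median was -0.22, from array medians of -0.65 and 0.00. The part of these cell types in the fall of Angpt1 was not tested.

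Macrophages can also express TEK. Of 6 tested macrophage markers 4 were called lower and 0 higher, against 14.8% and 9.13% of all tested genes, with a median of -0.71. Cx3cr1 had -1.75, Aif1 -0.79 and Ptprc -0.78, whereas Adgre1 and Mrc1 were not called at -0.04 and 0.08. The summed signal with BIO was 59.1% of control in replicate 1 and 78.5% in replicate 2. Fcgr1 was not tested. Of 6 markers of the ureteric epithelium 4 were called lower, with a median of -0.90. Among them Upk3a had -1.98, Cdh1 -1.04 and Krt8 -0.91, and Epcam was not called at 0.02. The mesenchymal marker Tbx18 and the epithelial marker Cdh1 were present in control, with signals of 9371 and 10572 for Tbx18 and of 7817 and 9764 for Cdh1.

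**Figure D3:**
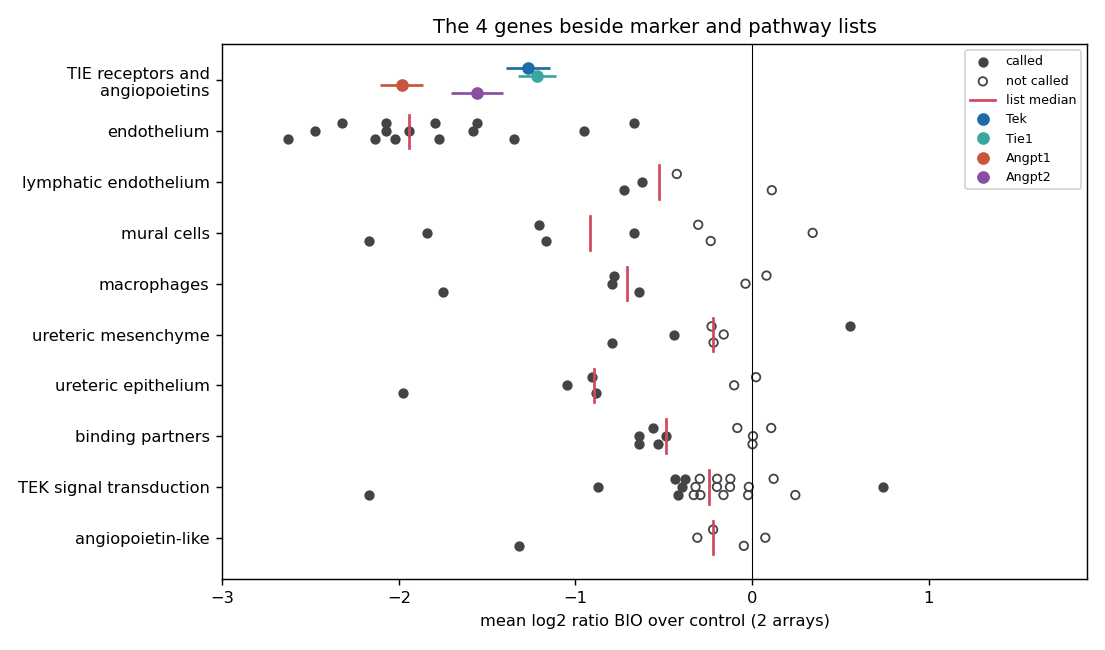
Mean log2 ratio of BIO over control (2 arrays) of the 4 genes (colored, bars are the SE) and of the tested genes of each list (filled where called at an adjusted p below 0.05, open where not called); the red line is the median of the list. Tek and Tie1 lie to the right of the endothelial median of -1.94, and Angpt1 lies next to it at -1.98.

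The relatives and binding partners of the receptors and ligands, with sheddases among them, moved less than the 4 genes. Of 10 such genes 9 were tested, 5 were called lower and 0 higher, against 14.8% and 9.13% of all tested genes. The median of the means was -0.49, but the medians of the single arrays were -0.19 and -0.38. Ptprb, encoding the endothelial phosphatase that removes phosphate from TEK, had a mean of -0.64 ± 0.12 (SE), from -0.81 in replicate 1 and -0.46 in replicate 2. Svep1, encoding a matrix protein that binds TIE1, had -0.59 and -0.38. The integrin genes Itga5 and Itgb1 were also called lower. Itga5 had -0.29 in replicate 1 and -0.99 in replicate 2, and Itgb1 had -0.55 and -0.51. Mmp14, encoding a membrane protease that sheds TEK, had -0.19 and -0.93. Itgav and Itgb3 were not called at 0.00 and 0.01, and Adam17, whose product is a sheddase, was not called at 0.11. The third ligand gene, Angpt4, was not called at -0.08 with control signals of 99.1 and 108. Lect2, a ligand gene of TIE1, was not tested. With the processed signals, 0 of the 5 calls in this list were made by limma.

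Inside the cell, activated TEK signals through adaptor proteins, PI3 kinase and AKT, which holds the transcription factor FOXO1 out of the nucleus. Of 20 genes of this chain, all tested, 6 were called lower and 1 higher, against 14.8% and 9.13% of all tested genes, with a median of -0.25. Nos3, encoding endothelial nitric oxide synthase, had a mean of -2.17 ± 0.14 (SE), from -2.41 and -1.93. Pik3cb, encoding a catalytic subunit of PI3 kinase, had -0.87. Further genes called lower included the adaptor genes Dok2 at -0.42 and Grb14 at -0.39 and the transcription factor gene Foxo1 at -0.38 (limma adjusted p = 0.0453). Pik3r1, encoding the regulatory subunit of PI3 kinase, was called higher at 0.74 ± 0.12. Nck1 was not called at -0.02, and Akt1 was not called at -0.32. With the processed signals 1 gene of the list was called lower by limma and 1 higher, and with median centering in place of loess 2 were called lower.

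The angiopoietin-like genes encode secreted relatives of the angiopoietins that are not known as ligands of TEK. Of 6 such genes 5 were tested, and 1 was called lower and 0 higher, against 14.8% and 9.13% of all tested genes. Angptl7 was called lower at -1.32 ± 0.15 (SE), from control signals of 159 and 156 to 39.3 and 65.2 with BIO. Angptl1, Angptl2, Angptl4 and Angptl6 were not called, at -0.31, -0.05, -0.22 and 0.08. In the lists, Eng, Erg, Flt1, Csf1r, Notch3, Sox9, Svep1, Itgb1, Angpt4, Adam17, Dok2, Grb14, Foxo1, Akt1, Angptl1 and Angptl4 are named outside the rule for named genes, after their values were seen. Not every probe shared the call of the brightest one for Foxo1 and Erg, of which 1 of 2 probes was called lower, for Ptprb, Flt1 and Csf1r, of which 2 of 3 were, and for Mcam, of which 1 of 2 was called lower although its brightest probe was not.

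The genes whose pair of ratios lay nearest to that of each of the 4 genes were sought among all tested genes, by Euclidean distance over the 2 arrays. Nearest to Tek were Rhpn2, Vsig2 and Adamtsl4, at distances of 0.00424, 0.00701 and 0.0214. Nearest to Tie1 were Ubald2, Clstn2 and Myl9, and nearest to Angpt1 were Upk3a, Epha3 and Depp1. Nearest to Angpt2 were Anxa11, Lpl and the endothelial marker Egfl7, at 0.00879, 0.0285 and 0.0338. Only 2 values enter each distance, so many genes lie close.

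RefSeq promoter windows (GRCm38.p6, 300 bases around a gene start) were given for Tek and Tie1. They were searched on both strands for the TCF/LEF motif CTTTGAT, the forkhead motif GTAAACA, the AHR motif TTGCGTG and the ETS motif GGAAGT. The ETS motif was present in the Tie1 window and in 23.8% of all 32851 windows of that length. The other 3 motifs, each in 1.16% to 3.73% of all windows, were in neither window, and the ETS motif was not in that of Tek.

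**Figure D4:**
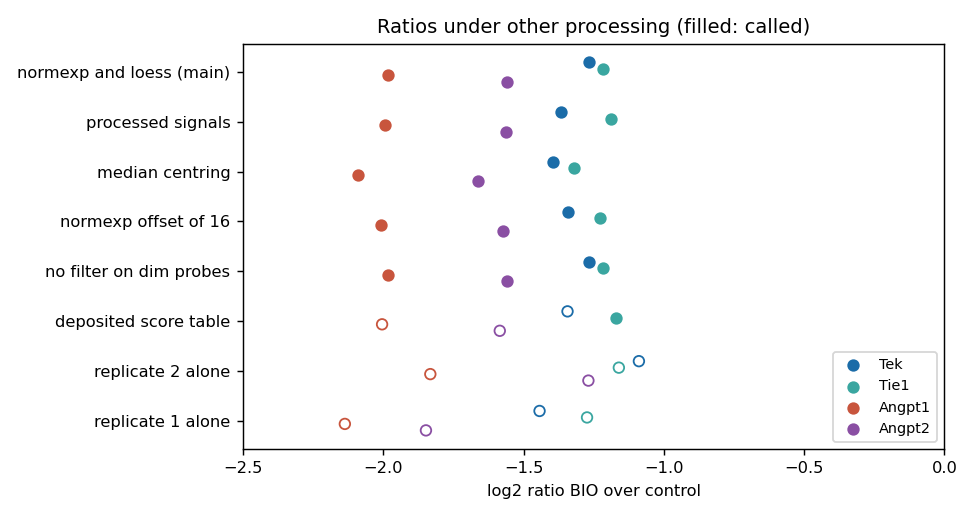
Log2 ratio of BIO over control of the 4 genes with the main processing, with each alternative, and on each array alone; symbols are filled where the adjusted p was below 0.05 and open where it was not or, for single arrays, where there is no test. All values lie between -2.14 and -1.09, and Angpt1 is lowest in every row.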

How the data were processed

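Agilent 2-color arrays with probes of 60 bases, both on 1 slide and scanned together, were quantified by the authors with Agilent Feature Extraction 10.7.3.1, per the file headers. The deposited mean and local background intensities were not corrected, and the deposited processed intensities were background-subtracted, detrended and dye-normalized. The deposited table of 1 score per probe follows the signed fold of BIO over control, with a column median of 1 on both arrays. Its making and exact centering are not stated. The yes or no marks per spot (other values) are those the authors deposited.

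Intensities were corrected by normexp (offset of 50) and loess within arrays with limma 3.58.1 in R 4.3.3. Outlier-marked spots, 3.49% and 3.16% of biological spots, were left out, and spots were averaged. Probes well above background in over a share of 0.5 of spots, in control or BIO RNA of both arrays, were tested (lmFit, eBayes, Benjamini-Hochberg over 28824 probes). The number of arrays limits the precision. The test was checked on simulated data without dye or pool effects, so that check does not cover such effects. P-values rest on the spread between 2 pool pairs, drawn toward a variance shared by all tested probes. The shared variance carries 7.14 degrees of freedom, more than 2 arrays give. A dye term could not be fitted. Probes were named by RefSeq accession, symbol or synonym. Without a match, 7458 of 39429 probes kept their name from the scanner files, and such names count as genes in the totals. The 4 genes, the lists and the rule for named genes (all 4 genes, the 3 largest called rises and falls per list, genes nearest to 0, and the 3 nearest patterns) were chosen with earlier results of these data known. Values of some genes of the lists are not reported here.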

Additional observations from a re-analysis of the deposited data

How the results depend on the processing

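The falls of Tek, Tie1, Angpt1 and Angpt2 kept their direction in every alternative and were called with the processed signals, median centering in place of loess, an offset of 16, no filter on dim probes and 1 probe per gene. Over the alternatives from scanner values the largest limma adjusted p was 0.0354 for Tek, Tie1 and Angpt1 and 0.0401 for Angpt2. Both came with the processed signals. With median centering all 4 genes had the same standard error, 0.216, so those calls rest on the variance shared by all tested probes. With the deposited score table Tek (-1.34, adjusted p = 0.116), Angpt1 (-2.0, adjusted p = 0.106) and Angpt2 (-1.58, adjusted p = 0.16) lost their calls at similar ratios, which left 1 of the 4 called. Its rounding gave 19.9% of the tested probes identical values on both arrays. The 3-fold criterion was met by 1 gene, Angpt1, with no share over all probes computed. On single arrays the ratios ranged from -1.44 to -1.09 for Tek, -1.27 to -1.16 for Tie1, -2.14 to -1.83 for Angpt1 and -1.85 to -1.27 for Angpt2.

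The 4117 tested probes called lower became 1462 with the processed signals, 2503 after median centering and 1777 in the score table, and the 2579 called higher became 1044 with the processed signals and 1029 with median centering. Relatives and binding partners called lower, 5, were 0 with the processed signals and 2 after median centering. They were 3 with an offset of 16, 3 without the filter and 1 with the score table. Their median was -0.28 without the filter and -0.38 to -0.19 on single arrays. Genes of TEK signal transduction called lower, 6, were 1, 2 and 2 with the processed signals, median centering and the score table, the last of which called 0 higher. Their median on single arrays was -0.30 to -0.26. Macrophage markers called lower were 2 with the processed signals and 1 with the score table. Mesenchymal markers called lower were 1 with the processed signals, 1 after median centering and 0 in the score table, and 0 were called higher with the processed signals, without the filter and with the score table. Their median was 0.0039 without replicate 1 and -0.65 without replicate 2. With the score table, markers called lower were 2 for endothelium, 0 for lymphatic endothelium, 2 for mural cells (1 higher) and 1 for epithelium, and 0 angiopoietin-like genes were called. Single-array medians were -0.38 to -0.24 for angiopoietin-like genes and -0.77 to -0.48 for macrophages.

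Relative to the endothelial median, Angpt1 changed sign, to 0.0013 with the processed signals and from -0.20 to 0.037 on single arrays. Tek stayed above it at 0.54 to 0.73 on single arrays, and Angpt2 at 0.33 to 0.36, at 0.43 with the processed signals and at 0.42 with an offset of 16. The causes were not tested. Of 237 values under alternatives, 192 kept their direction and call, stayed within 1.5 times the count, or moved by less than the spread between the arrays. Each ratio pairs the BIO and control RNA of 1 array, so the fit is paired as it stands, and a replicate block could not be fitted in addition.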
